A study of Mus musculus with 4 samples.

Results

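Expression of 10 Notch pathway genes was examined in mouse mitral valve carrying 0, 1 or 2 mutant copies of Fbn1, the fibrillin-1 gene. They were the receptors Notch1, Notch2, Notch3 and Notch4, the ligands Jag1, Jag2 and Dll4, and the target genes Hey1, Heyl and Hes1. Every probe set annotated to exactly 1 of these genes was taken, which gave 19 probe sets of 20380 and 10 genes of 12393. Total RNA was read on 4 single-colour arrays. The homozygous (Hom) group held 1 array and its label gives the C1039G change on both alleles. The heterozygous (Het) group held 2 arrays whose labels give residue C1039 over a normal allele without naming the substituted residue. Wild-type (WT) valves, with both alleles normal, gave 1 array. The labels give no strain, age, sex or number of animals per array, so p-values measure only the spread between these arrays, which may be technical. With 1 array each, Hom and WT have no replicate check.

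Notch receptors are membrane proteins cut by proteases when a ligand on a neighbouring cell binds, and the freed intracellular part joins the DNA-binding protein RBPJ to switch on target genes such as those of the Hes and Hey repressor families. In the developing heart the pathway acts in the endocardium, where it promotes the change of endocardial cells into the mesenchyme of the valve cushions. In humans, mutations of NOTCH1 are a cause of aortic valve disease. Fibrillin-1 forms extracellular microfibrils, and mice with its C1039G change are a model of Marfan syndrome, in which the mitral valve is often affected.

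Notch1 and Jag2 were the members with the widest range over the 4 arrays among those tested that have an entry in the RefSeq promoter table, and their promoters are therefore shown. Each window runs from 250 bases before to 50 bases after the gene start on GRCm38.p6, 5′ to 3′ on the gene's own strand, and capitals mark the GC box GGGCGG read on either strand, including copies that overlap. The Notch1 window lies at chr2:26503773-26504072 and the Jag2 window at chr12:112929446-112929745, both on the minus strand.
Notch1: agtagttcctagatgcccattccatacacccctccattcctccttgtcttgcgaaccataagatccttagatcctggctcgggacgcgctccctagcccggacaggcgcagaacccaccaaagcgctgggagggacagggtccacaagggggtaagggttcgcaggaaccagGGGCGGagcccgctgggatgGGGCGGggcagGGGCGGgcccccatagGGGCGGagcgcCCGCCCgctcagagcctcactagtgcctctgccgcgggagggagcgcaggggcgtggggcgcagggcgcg
Jag2: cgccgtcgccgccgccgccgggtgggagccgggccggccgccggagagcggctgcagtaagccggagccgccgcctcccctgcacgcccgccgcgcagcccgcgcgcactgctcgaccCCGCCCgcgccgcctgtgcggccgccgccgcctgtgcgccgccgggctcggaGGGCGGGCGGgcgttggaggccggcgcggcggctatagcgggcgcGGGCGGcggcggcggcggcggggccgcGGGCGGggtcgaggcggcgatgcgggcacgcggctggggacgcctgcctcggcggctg
The Notch1 window held 5 GC boxes and the Jag2 window 5, and their GC content was 68.3% and 86%, against a median of 52.7% over 32851 promoters. A GC box was present in 5 of the 7 members with an entry and in 35.7% of all promoters. The letters TGGGAA, the core of the RBPJ site, were searched on both strands and occurred in 0 of the 7 member windows and in 25.6% of all promoters. The E-box CACGTG, a sequence that Hey proteins can bind, occurred in 0 of the 7 and in 7.15% of all. These matches describe the letters of the windows alone.

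The values are intensities with the scaling of the deposited table, in which each array had a trimmed mean of 150.1. For differences, values under 18.9, the 25th percentile of all values, were raised to that floor and log2 transformed. Probe sets averaging 62.6 or more over the 4 arrays, which is the median probe set's average, were tested, which left 10399 probe sets and 10 of the 19 for the Notch genes. Het replicate 2 stood apart from the other arrays, with an Actb 3′ to 5′ intensity ratio, a sign of RNA integrity, of 3.04 against 2.16 to 2.25 elsewhere. The Gapdh ratio was also highest there but less set apart, at 3.84 in Hom, 3.19 and 4.65 in the Het replicates, and 4.18 in WT. Results are therefore given for each Het array. The valve genes Vcan, encoding versican, and Cdh11, a cadherin of mesenchymal cells, read 1454 to 1678 and 1204 to 1483 over the arrays, while Cnmd, encoding chondromodulin, was under the floor on all 4. Tnmd, encoding the related tenomodulin, read 51.3 in Hom, 73.7 and 39.8 in the Het replicates, and 144.2 in WT, and Twist1, a mesenchymal transcription factor, read 67.3, 86.4 and 38.9 in those mutant arrays and 85.9 in WT. Cardiac muscle RNA was present on every array, where the cardiomyocyte markers Myl2 and Actc1 read 2607 to 12042 and 3615 to 10425. All 12 cardiomyocyte markers passed the level filter, which is set on the mean over the 4 arrays.

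Across the 3 genotypes no Notch probe set passed the test. In limma's fit of 3 groups, 0 of the 10 tested probe sets had an adjusted p under 0.05 for Hom against WT, where 0% of all probe sets tested did. The count was likewise 0 against 0% when Het was compared with WT, when Hom was compared with Het and when the slope per mutant allele was tested. At an unadjusted 0.05, 0 of the 10 passed in each of the 4 fits, against 0.615%, 1.22%, 0.962% and 0.76% of all probe sets. The 3-group fit has 1 residual degree of freedom, taken from the Het pair, so the lone Hom and WT arrays are assumed to vary as the Het arrays do. Differences below are descriptions of these 4 arrays, and the SE of a log2 difference was between 0.54 and 0.65 for Hom against WT in the 10 probe sets. The differences of Hom and of Het from WT share the WT array.

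**Figure D1:**
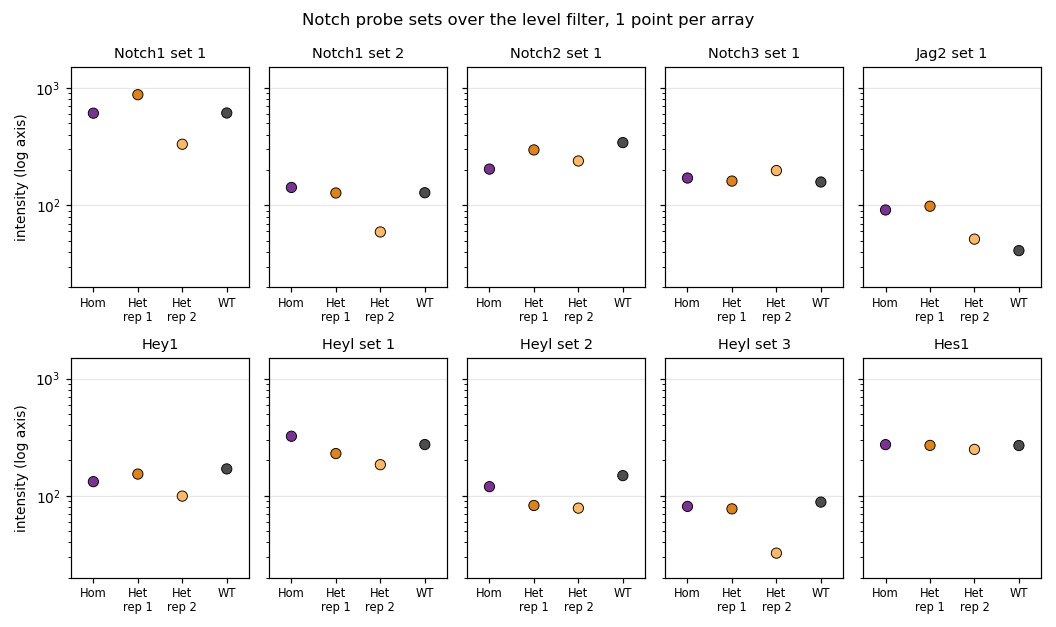
Deposited intensity (log axis) of the 10 Notch probe sets over the level filter, with 1 point per array in the order Hom, Het replicate 1, Het replicate 2 and WT. Hes1 lay between 248.5 and 273 on all 4 arrays, and Het replicate 2 was the lowest array in 7 of the 10 panels.

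Notch1, the receptor of endocardium and endothelium, was read by probe sets 1418634_at and 1418633_at. The first gave 611.1 in Hom, 878.6 and 332.1 in Het replicates 1 and 2, and 613.3 in WT. Hom and WT were thus nearly equal, while the Het arrays lay on either side of both. The Het pair averaged 605.4 ± 386.4 (SD, n = 2), with a 2.65-fold gap between its arrays, and the Hom minus WT difference was -0.01 log2 units (SE 0.65, limma adjusted p = 1). The second probe set gave 142.1 in Hom, 127.5 and 59.3 in the Het replicates, and 128.1 in WT. Its Het replicate 2 was again the low array, 2.16-fold below WT, and Het replicate 1 differed from WT by -0.01 log2 units.

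Notch2, a receptor expressed in many mesenchymal tissues, was read by 1455556_at at 203.7 in Hom, 297 and 239 in the Het replicates, and 342.9 in WT. Among the 10 tested probe sets it alone had both Het arrays between Hom and WT, as did 7.85% of all probe sets tested. The Hom minus WT difference was -0.75 log2 units (SE 0.55, limma adjusted p = 1), and the slope on mutant alleles was -0.38 log2 units per allele (SE 0.20, limma adjusted p = 1). Its other probe set, 1451889_at, lay under the level filter and ran the other way, at 61.3 in Hom, 75.4 and 43.1 in the Het replicates, and 41.3 in WT. The readings of Notch2 therefore disagree on the order of Hom and WT.

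Notch3, the receptor of vascular smooth muscle cells and pericytes, was read by 1421965_s_at, whose suffix marks probes shared by related transcripts, at 171 in Hom, 161.1 and 198 in the Het replicates, and 158.2 in WT. The groups lay close together, with a Hom minus WT difference of 0.11 log2 units (SE 0.55, limma adjusted p = 1) and Het replicate 2 highest. The dimmer probe set 1421964_at gave 60.7 in Hom, 65.4 and 36.8 in the Het replicates, and 69.6 in WT. There Het replicate 2 was the lowest array, so the probe sets of Notch3 also disagree.

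Notch4, a receptor of endothelial cells, had neither probe set over the filter. Probe set 1456263_at read 48 in Hom, 38 and 26.3 in the Het replicates, and 41.5 in WT. Probe set 1449146_at read 25.1 in Hom, 28.8 and 28.1 in the Het replicates, and 56.6 in WT. The WT array was above the other 3 in the second probe set, 2.25-fold over Hom, whereas in the first it lay below Hom. None of the 4 receptors had probe sets that placed Hom, both Het arrays and WT in the same order.

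Jag2, a transmembrane ligand of Notch receptors, had the highest Hom minus WT difference among the tested probe sets. Probe set 1426430_at read 91.3 in Hom, 98.3 and 51.5 in the Het replicates, and 41.1 in WT. All 3 mutant arrays were above WT, by 2.22-fold in Hom, 2.39-fold in Het replicate 1 and 1.25-fold in Het replicate 2. The Hom minus WT difference was 1.15 log2 units (SE 0.59, limma unadjusted p = 0.072, adjusted p = 1), and Het minus WT was 0.79 (SE 0.51, adjusted p = 0.9999). Its mean of 70.6 passed the filter through the Hom and Het replicate 1 arrays, since WT and Het replicate 2 were each under 62.6, and without Het replicate 1 it missed the filter. The other Jag2 probe set, 1426431_at, lay under the floor on all 4 arrays and gives no difference.

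Jag1, the ligand whose loss causes Alagille syndrome in humans, was dim on every array. Probe set 1421105_at read 31.3 in Hom, 28.4 and 19.7 in the Het replicates, and 26.6 in WT. Probe set 1421106_at read 22.4 in Hom, 36 and 9.4 in the Het replicates, and 14.5 in WT. Since WT lay under the floor in the second, Het replicate 1 was at least 1.90-fold higher than WT and Hom at least 1.19-fold higher. Het replicate 2 also lay under the floor in that probe set, so its order relative to WT is not resolved.

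Dll4, a ligand of endothelial cells and endocardium, read 26.2 in Hom, 53.3 and 26 in the Het replicates, and 27.9 in WT with probe set 1421827_at. Het replicate 1 was the one array set apart, 1.91-fold over WT and 2.03-fold over Hom. Probe set 1421826_at was over the floor in Hom alone, at 27.4, against 11.5 and 17.9 in the Het replicates and 7.5 in WT. At these intensities the arrays do not resolve a difference for Dll4 or Jag1.

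**Figure D2:**
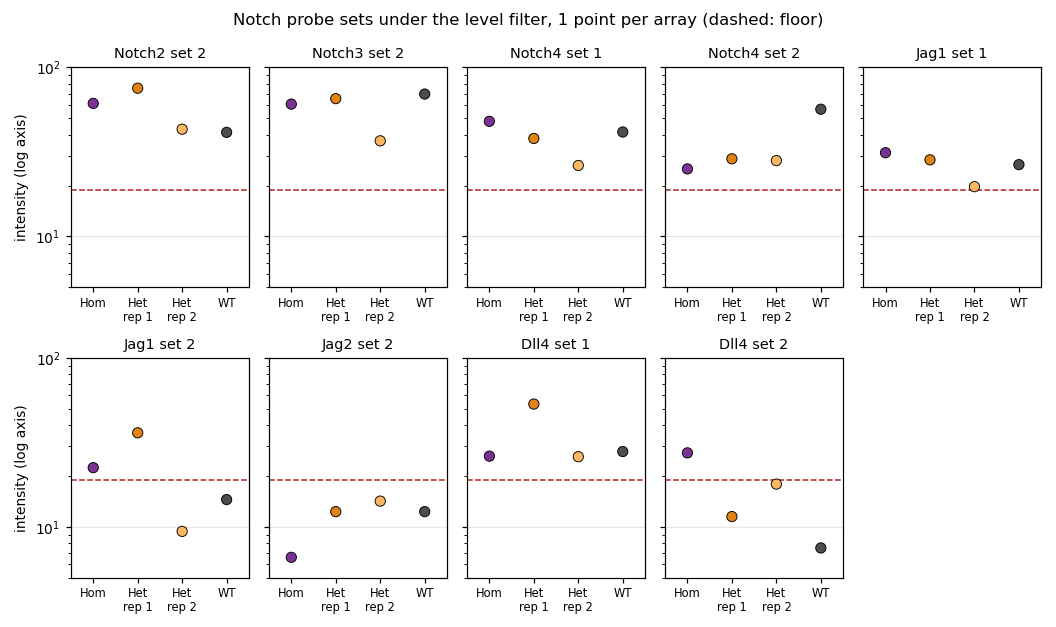
Deposited intensity (log axis) of the 9 Notch probe sets under the level filter, with 1 point per array in the order Hom, Het replicate 1, Het replicate 2 and WT, and the floor of 18.9 as a dashed line. Notch4 set 2 is highest in WT at 56.6, and Jag2 set 2 lies under the floor on all 4 arrays; set numbers run from the brighter to the dimmer probe set of a gene.

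Hey1, a repressor induced by Notch in endothelium and endocardium, was read by 1415999_at at 131.9 in Hom, 153.1 and 99.3 in the Het replicates, and 169.4 in WT. WT was the highest array, and all 3 mutant arrays were below it. Hom minus WT was -0.36 log2 units (SE 0.57, limma adjusted p = 1), and Het minus WT was -0.46 (SE 0.49, adjusted p = 0.9999). The gap between Hom and WT was smaller than that between the Het arrays, at -0.62 log2 units for Het replicate 2 minus Het replicate 1.

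Heyl, a Hey family repressor induced by Notch in vascular smooth muscle, was read by 3 probe sets, and each placed both Het arrays below WT. Probe set 1419302_at gave 321.7 in Hom, 229 and 184.1 in the Het replicates, and 273.4 in WT. Probe set 1438886_at gave 119.6 in Hom, 82.6 and 78.4 in the Het replicates, and 148.5 in WT. Probe set 1419303_at gave 81.1 in Hom, 77.3 and 32.4 in the Het replicates, and 88.3 in WT.

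In all 3 probe sets of Heyl the Hom array also lay above both Het arrays. The Het minus WT difference was -0.41 (SE 0.47), -0.88 (SE 0.47) and -0.82 log2 units (SE 0.55) in that order, with limma adjusted p = 0.9999 for each. The middle one had the lowest unadjusted p of the 10 tested probe sets for this comparison, 0.0796 in limma's fit, and its Het arrays differed by only -0.08 log2 units. Hom minus Het was 0.65, 0.57 and 0.70 log2 units. The values of 1419303_at rested on Het replicate 2. Its Hom minus Het was 0.07 for replicate 1 and 1.32 for replicate 2, and its Het minus WT was -0.19 and -1.45. Against WT, Hom was higher in the first probe set, by 0.23, and lower in the other two, by -0.31 and -0.12. In Het replicate 2, 1419303_at was 2.73-fold below WT.

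Hes1, a repressor of the Hes family and a direct Notch target in many cell types, was the steadiest member. It read 273 in Hom, 268.8 and 248.5 in the Het replicates, and 268.1 in WT with 1418102_at. The whole range over the 4 arrays was 0.14 log2 units, and Hom minus WT was 0.03 (SE 0.54, limma adjusted p = 1).

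**Figure D3:**
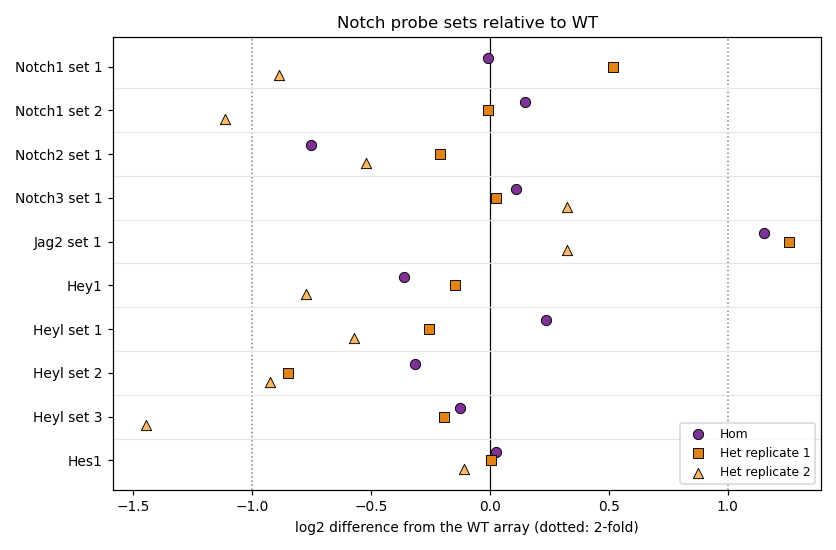
Log2 difference from the WT array of Hom (circles), Het replicate 1 (squares) and Het replicate 2 (triangles) for the 10 tested Notch probe sets, with dotted lines at 2-fold. Jag2 lies to the right on all 3 arrays, the 3 Heyl probe sets lie to the left on both Het arrays, and Hes1 stays within 0.11 log2 units of 0.

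Counted by size, 1 of the 10 tested probe sets was at least 2-fold higher in Hom than in WT, where 0.721% of all probe sets tested were, and 0 were 2-fold lower, against 0.519%. That probe set was Jag2, which was also the 1 of 10 that was 2-fold higher than WT in Het replicate 1, against 0.837% of all. Those same arrays, Hom and Het replicate 1, had carried it over the level filter. Over all 19 probe sets, without the level filter, 1 was 2-fold higher in Hom than in WT (1.91% of all single-gene probe sets) and 1 was 2-fold lower (1.63%), which was the dim Notch4 probe set 1449146_at. Against WT, 2 of the 10 were 2-fold lower in Het replicate 2, a probe set each of Notch1 and Heyl, where 4.67% of all were. Hom was 2-fold above Het replicate 2 at 2 of 10, against 4.92%, and 2-fold apart from Het replicate 1 at 0 of 10, against 1.73%. Counted in either direction, 1 of 10 was 2-fold apart between Hom and WT (1.24% of all), 1 between Het replicate 1 and WT (2.01%), 2 between Het replicate 2 and WT (7.24%) and 2 between Hom and Het replicate 2 (7.36%).

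Both Het arrays lay below WT at 6 of the 10 tested probe sets, against 28.6% of all probe sets tested, and at 9 of all 19, against 33.2%. Both lay above WT at 2 of 10 (26% of all) and at 4 of 19 (25%). The 6 below were the 3 of Heyl and those of Hey1, Notch2 and Notch1 (1418633_at). Hom lay above both Het arrays at 5 of 10 (30.1% of all) and at 8 of 19 (35.1%), and below both at 1 of 10 (24.1%) and 3 of 19 (22.8%). These shares are counts over probe sets that share genes and arrays. With 1 probe set per gene, both Het arrays lay below WT at 3 of the 7 tested genes, against 28.8% of all genes.

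The Het arrays differed from each other at many of the Notch probe sets. Het replicate 2 was the lowest of the 4 arrays at 7 of the 10 tested probe sets, where it was lowest at 40.8% of all, and at 12 of the 19, where it was lowest at 43.1%. The median difference of Het replicate 2 minus Het replicate 1 was -0.47 log2 units over the 10 and -0.08 over all probe sets tested. With 1 probe set per gene, the median of the 7 tested genes was -0.31, against -0.06 over all genes. With the arrays centred to equal medians, it was -0.06 for the 7 genes, against 0.19 over all genes. At 3 of the 10, 2 of Notch1 and 1 of Heyl, Het replicate 2 was at least 2-fold below Het replicate 1, against 6.12% of all, and 3 was also the count in either direction, against 9.83%. Without Het replicate 2, the median of Het replicate 1 minus WT over the 10 was -0.08 log2 units, against -0.67 for Het replicate 2 minus WT, and 0.02 and -0.07 over all probe sets tested.

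Markers of cell types that use the pathway also differed between the Het arrays. Over all 7314 genes that passed the filter, 3995 were lower in Het replicate 2 than in Het replicate 1 and 3312 were higher. Their median difference was -0.06 log2 units, and the counts of every marker list below are to be read against these. Of 14 endothelial markers 13 passed the filter, and all 13 were lower in Het replicate 2 than in Het replicate 1, with a median difference of -0.46 log2 units; Erg was under the floor on every array. Their summed intensity was 7035 in Hom, 7454 and 5529 in the Het replicates, and 7667 in WT. Tek and Eng, receptors of endothelial cells, read 689.1 and 914.6 in Het replicate 2, against 1022 and 1131 in Het replicate 1. The 7 of 9 mural cell markers that passed had a median of -0.39 and were lower at 5, but the contractile genes Acta2 and Tagln were higher, at 3771 and 2058 in Het replicate 2 against 2934 and 1218 in Het replicate 1. The summed intensity of the mural markers was 5312 in Hom, 5217 and 6591 in the Het replicates, and 4581 in WT. Acta2 and Tagln made up most of that sum on every array.

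Other cell types differed between the Het arrays as well. All 10 interstitial markers were lower in Het replicate 2, with a median of -0.68 log2 units. Cardiomyocyte markers were lower at 10 of 12, with a median of -1.53, and the ventricular light chain Myl2 read 2607 in Het replicate 2 against 12042 in Het replicate 1. Those that were higher were the atrial light chains Myl7 and Myl4. They read 2659 and 1590 in Het replicate 2 against 1364 and 1481 in Het replicate 1. Macrophage markers were higher at 10 of 11, with a median of 0.89, and all 6 platelet markers were higher, with a median of 0.62. The 2 erythroid markers that passed were also higher, with a median of 1.5. The part of these markers and of RNA integrity in the Notch values was not tested. In bulk tissue, fewer cells of a type and less RNA per cell cannot be told apart.

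**Figure D4:**
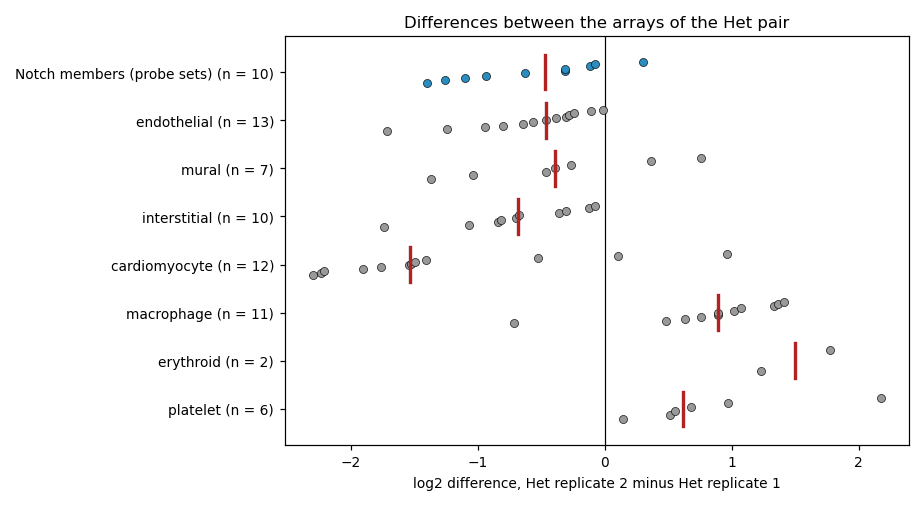
Log2 difference of Het replicate 2 minus Het replicate 1 for the 10 tested Notch probe sets (blue) and for the genes of 7 marker lists (grey), with 1 point per probe set or gene and the median as a red bar. The Notch median is -0.47 over probe sets and -0.31 with 1 probe set per gene, the endothelial median is -0.46 per gene, the cardiomyocyte median is -1.53 and the macrophage median is 0.89.

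Notch1 had the widest range of the representative probe sets, 1.40 log2 units. By Euclidean distance between log2 values centred on each gene's mean over the 4 arrays, the nearest of 7313 other genes was Tnnt2, cardiac troponin T, at 0.04 log2 units. It read 3904 in Hom, 5717 and 2159 in the Het replicates, and 4077 in WT, an order shared with Notch1 probe set 1418634_at. Mfn2, a mitochondrial fusion protein, at 0.07, and Sparcl1, a matricellular protein, at 0.08 came next. The distances describe these arrays alone, and the search picked genes for a like pattern. The other Notch1 probe set, 1418633_at, was highest in Hom, at 142.1, and did not share the order.

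Other genes of the pathway were taken from lists of 50 genes, of which 43 were measured and 32 passed the filter. For these 32 the median of Hom minus WT was -0.02 log2 units, with 14 higher and 18 lower, where all 7314 genes had a median of 0.02 with 3864 higher and 3438 lower, and 0 passed limma's test in any of the 3 comparisons of groups, as over all genes. Relative to WT, Het replicate 1 gave a median of -0.07 and Het replicate 2 one of -0.23, against 0.02 and -0.05 over all genes that passed. With the arrays centred to equal medians, the 32 genes had a median of 0.01 in Het replicate 2, against 0.19 over all genes. Both Het arrays lay below WT at 13 of the 32, against 28.8% of all genes.

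Among the other ligands, Dll1, a Delta ligand, was the one gene of 5 over the filter. It read 424 in Hom, 305.3 and 158.6 in the Het replicates, and 459.5 in WT. Both Het arrays were below Hom and WT, with a Het minus WT difference of -1.06 log2 units (SE 0.52, limma adjusted p = 0.9999). Dlk1, Dlk2, Dll3 and Dner lay under the filter.

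The 5 genes of receptor glycosylation all passed. Lfng, a fringe enzyme that elongates O-fucose on Notch, was the lowest of them, at 61.2 in Hom, 66.2 and 45 in the Het replicates, and 92.2 in WT. All mutant arrays were below WT, by -0.59 log2 units in Hom (SE 0.56). Lfng passed the level filter through the Het replicate 1 and WT arrays, since Hom and Het replicate 2 were under 62.6. Pofut1, which adds the O-fucose, had the highest Hom minus WT difference at 0.17, and Mfng, another fringe enzyme, the highest Het minus WT at 0.06, with replicate 1 at 0.26 and replicate 2 at -0.14.

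Of 10 genes for receptor cleavage, 7 were measured and passed. Ncstn, the nicastrin subunit of gamma-secretase, had the lowest Het minus WT difference, -0.70 log2 units (SE 0.49), at 158.1 in Hom, 155.4 and 98.4 in the Het replicates, and 200.6 in WT. Psenen, a further subunit, had the highest at 0.24, with its Het arrays on opposite sides of WT, replicate 1 at -0.07 and replicate 2 at 0.55. For Hom minus WT, Psen2, a presenilin, was highest at 0.43, and Adam10, a protease that cuts the receptor, lowest at -0.54. Another tested probe set of Adam10 gave 0.58. The other Psen2 probe set, 1431542_at, lay under the level filter and gave -0.74.

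Among the 8 genes of endocytosis and turnover that passed, Itch and Dtx3 marked the ends in both comparisons with WT. Itch, a ubiquitin ligase that acts on Notch, read 263 in Hom, 204.3 and 202.2 in the Het replicates, and 165.1 in WT. Dtx3, of the Deltex family, read 165.4 in Hom, 196.4 and 199.2 in the Het replicates, and 303.5 in WT. In both genes the Het arrays agree closely and lie between Hom and WT, with Hom minus WT differences of 0.67 and -0.88 log2 units (SE 0.54 for each, limma adjusted p = 1). Neither was at least 2-fold apart from WT on any array.

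Of the nuclear partners, 9 of 13 passed. Rbpj itself read 198 in Hom, 223.8 and 192.8 in the Het replicates, and 200 in WT, a narrow range; it was named after its values were seen, and its dimmer probe set gave a Hom minus WT difference of -0.37. Tle2, a Groucho corepressor, was lowest in both comparisons, at -0.60 for Hom and -0.58 for Het minus WT. The Het value of Tle2 rested on replicate 2, with 91.4 and 41.8 in the Het replicates, against 92.6 in WT. Tle2 passed the level filter through the Het replicate 1 and WT arrays, since Hom, at 60.9, and Het replicate 2 were under 62.6. Maml1, a coactivator, was highest for Hom minus WT at 0.42, with its other probe set at -0.02, and Tle3, also a corepressor, was highest for Het at 0.10.

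Of the 5 other targets, Nrarp and Hes6 passed, while Hey2, Hes5 and Hes7 did not. Nrarp, a Notch target that feeds back on the pathway, read 317.4 in Hom, 263.8 and 282.5 in the Het replicates, and 317.9 in WT with its brighter probe set. Its dimmer probe set 1417986_at gave 117.7 in Hom, 25.6 and 48.9 in the Het replicates, and 79.8 in WT. Both had the Het arrays below Hom and WT, by -0.22 (SE 0.47) and -1.17 log2 units (SE 0.51) for Het minus WT. The dimmer one passed the level filter through the Hom and WT arrays, since both Het arrays were under 62.6. Its Hom minus Het difference was 1.73 (SE 0.51, limma adjusted p = 0.999992). Hes6, a Hes family member known to antagonise Hes1, was the higher of them in both comparisons, at 0.05 for Hom and 0.14 for Het. Its Het arrays lay on opposite sides of WT, replicate 1 at -0.19 and replicate 2 at 0.47. The other Hes6 probe set, 1452021_a_at, lay under the level filter, with every mutant array below WT. It read 18.7 in Hom, 14.8 and 31 in the Het replicates, and 47.4 in WT, with Hom and Het replicate 1 under the floor.

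**Figure D5:**
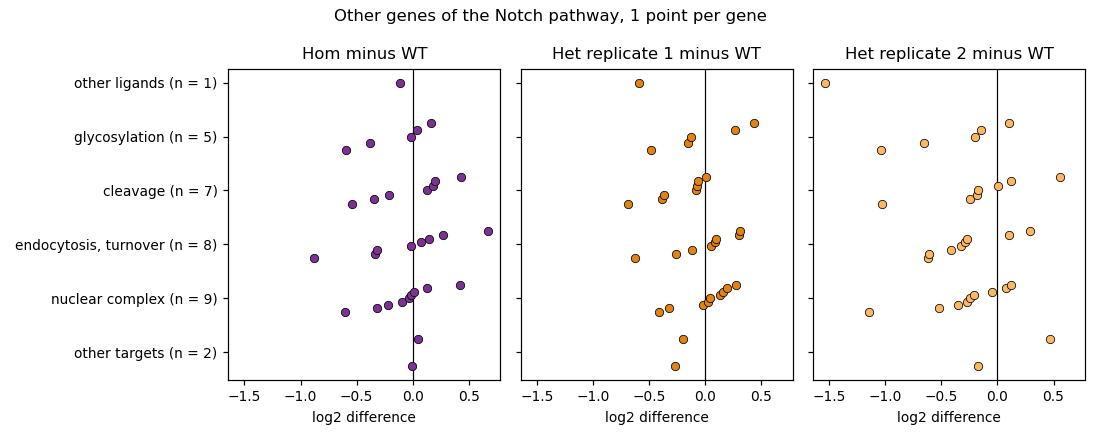
Log2 difference from WT of Hom, Het replicate 1 and Het replicate 2 for the 32 other Notch pathway genes that passed the filter, with 1 point per gene in 6 groups. Points straddle 0 in Hom and Het replicate 1, and 23 of the 32 lie below 0 in Het replicate 2, where 3934 of all 7314 genes do, with Dll1 the farthest.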

How the data were processed

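RNA of mouse mitral valve was measured on 4 arrays. The deposited values were linear intensities for 22690 probe sets. No label or file names the software (not given in the sources used here), and depth on arrays is limited by their number. The authors' scaling was kept, because all arrays shared a trimmed mean after leaving out 2% at each end. Median centring had raised Het replicate 2 by 0.25 log2 units. Genes were assigned from GEO's annotation of the array. It pairs 20393 with a single gene and 691 with more than one, and leaves 1606 unnamed; 20364 matched the RefSeq table of GRCm38.p6, and 64 control probe sets were left out. The Het arrays held equal values at 82 probe sets and were counted as separate.

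The floor was the 25th and the filter the 50th percentile. limma 3.58.1 (R 4.3.3) gave the tests by lmFit and eBayes, with Benjamini-Hochberg adjustment over 10399 probe sets at a threshold of 0.05, and was tested on simulated data. Where a gene had several probe sets, the brightest represented it in lists. Named pathway genes were the highest and lowest of each list for Hom and for Het minus WT. Named marker genes were the brightest of each list. Cnmd, Erg, Tnmd, Twist1, Myl4 and Myl7 were named outside this rule, after their values were seen. The members and lists were chosen with earlier results of these data known. Alternatives covered scaling, floor, filter, probe sets, Het arrays, eBayes and the size limit. Figures used matplotlib 3.10.9 in Python 3.11.15.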

Additional observations from a re-analysis of the deposited data

How the results depend on the processing

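The count of Notch probe sets past limma's adjusted threshold was 0 in each of the 4 fits under every alternative that gave a test; leaving out a Het array left the 3-group fit with no residual degree of freedom, so those are values with no test. No paired analysis was possible because Hom and WT carry no replicate number to share with Het. Counts of probe sets at least 2-fold apart were small and moved with the settings. The Notch probe sets tested numbered 10 in the main setting, 19 with no filter and 4 with the filter at the 75th percentile. Averaging the probe sets of each gene left 6 genes. The higher filter left out Jag2 1426430_at, Notch1 1418633_at and Heyl 1419303_at, which had made up the main counts against WT. For Hom and WT the count of 1 became 2 with no filter, 0 with the filter at the 75th percentile, 0 with each gene's probe sets averaged and 2 at the 1.5-fold limit, and it ran between 0 without Het replicate 1 and 1 without Het replicate 2, since Jag2 then missed or kept its place over the filter. For Het replicate 1 and WT the count of 1 became 0 with the filter at the 75th percentile, 0 with the mean of probe sets and 2 at 1.5-fold. For Het replicate 2 and WT the count of 2 became 1 after centring, 1 after quantile normalization and 3 with no filter. It became 0 with the higher filter, 0 with the mean of probe sets and 5 at 1.5-fold. For Hom and Het replicate 1 the count of 0 became 1 with no filter. For Hom and Het replicate 2 the count of 2 became 1 after centring, 1 after quantile normalization, 0 with the higher filter, 1 with the mean of probe sets and 6 at 1.5-fold. For Het replicate 2 and Het replicate 1 the count of 3 became 1 after centring, 1 after quantile normalization and 4 with no filter. It became 1 with the higher filter, 1 with the mean of probe sets and 5 at 1.5-fold.

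Among 237 single values, 17 turned their sign. Without Het replicate 2, Het minus WT of Notch1 (1418634_at) was 0.52, against -0.18, and Hom minus Het was -0.52, against 0.18; Hom minus Het was -0.11 for Jag2, against 0.36, -0.22 for Hey1, against 0.10, and 0.086 for Notch3, against -0.06; and Het minus WT of Hes1 was 0.0038, against -0.05. Hom minus WT of Notch1 (1418634_at) was 0.015 after quantile normalization and 0.072 with the mean of probe sets. With that mean, Het minus WT of Notch2 was 0.050, Hom minus WT of Heyl was -0.067, and Notch3 gave -0.043 for Hom minus WT, -0.16 for Het minus WT and 0.12 for Hom minus Het. After centring, Hom minus Het of Hey1 was -0.053, and Hes1 gave -0.014 for Hom minus WT, 0.057 for Het minus WT and -0.071 for Hom minus Het. The other pathway genes had a median Het minus WT of -0.026 after centring, against -0.14 as deposited, and between -0.23 without Het replicate 1 and -0.066 without Het replicate 2. Their median Hom minus Het was -0.018 after centring, 0.025 after quantile normalization and 0.13 as deposited, and ran from 0.0094 without Het replicate 2 to 0.19 without Het replicate 1; these 4 settings were added after seeing the data. Centring moved the median of all genes in Het replicate 2 minus WT to 0.19, against -0.05 as deposited, so the direction of lists in that array is relative to that shift. The causes of the other changes were not tested.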

Other observations

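Probe sets of 1 gene often disagreed on these arrays. Of 2168 genes with at least 2 tested probe sets, 53.3% had probe sets on opposite sides of 0 for Hom minus WT and 50.5% for Het minus WT. The median spread between the probe sets of a gene was 0.33 log2 units for Hom minus WT, against 0.15 for Notch1 and 0.55 for Heyl. For Het minus WT the median spread was 0.34 log2 units, against 0.38 for Notch1 and 0.47 for Heyl.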
